A study of Mus musculus with 2 samples.

Results

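The 10 cardiac lineage transcription factors described here were chosen by name: Gata4, Gata5, Gata6, Tbx20, Tbx5, Tbx18, Tcf21, Wt1, Hand2 and Nkx2-5. They are 10 of the 31053 genes in the count tables, and each was found in both libraries under its symbol and its Ensembl identifier. None of them was used to sort cells into classes. All 10 reached 20 unique molecular identifiers (UMIs, each standing for 1 captured transcript) summed over both libraries. The study profiled single cells of the mouse heart on postnatal day 1 (P1), within the first days of life when the heart can still regenerate, and on postnatal day 7 (P7), when that capacity is being lost. No genotype, treatment or strain was given for these hearts, and no group was injured. Each age was 1 library made from 3 pooled hearts of a single litter, so the spread between hearts could not be measured and no difference between ages had a replicate check. Digestion in Collagenase II lasted 20 min at P1 and 45 min at P7, and viable cells were then sorted by exclusion of 7-AAD. In CPM (counts scaled to a library or class of 1e6 UMIs), Xist was 971 and 0.123 at P1 and P7 and the Y-linked Ddx3y 0 and 78.2, so age, digestion time, litter and sex cannot be told apart.

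Transcription factors of the GATA, T-box, basic helix-loop-helix and NK-2 families act together in the embryonic heart, where they bind one another and share target genes. Nkx2-5, Tbx5 and Gata4 are known for driving the cardiomyocyte programme, Hand2 for the right ventricle and the endocardial cushions, and Tbx20 for chamber and valve growth. Wt1, Tbx18 and Tcf21 are the classical markers of the epicardium, the mesothelial sheet of the heart surface, which gives rise to fibroblasts and mural cells by epithelial to mesenchymal transition, and Tcf21 stays on in the fibroblasts.

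The sequence just upstream of the gene start is shown for a pair of members that were highest in fibroblasts or valve-type cells (Tcf21 and Tbx20) and a pair that was highest in Npr3-positive endothelium in at least 1 library (Hand2 and Gata5). The sequences are from RefSeq on GRCm38.p6, are written 5′ to 3′ on the strand of the gene, and end at the base before the outermost annotated start. Capitals mark matches to any of 4 motifs searched on both strands: the GATA site AGATAA, the T-box core GGTGTG, the E-box CANNTG and the NK-2 core AAGTG. An E-box and an NK-2 match may overlap.
Tcf21, chr10:22820175-22820393, minus strand: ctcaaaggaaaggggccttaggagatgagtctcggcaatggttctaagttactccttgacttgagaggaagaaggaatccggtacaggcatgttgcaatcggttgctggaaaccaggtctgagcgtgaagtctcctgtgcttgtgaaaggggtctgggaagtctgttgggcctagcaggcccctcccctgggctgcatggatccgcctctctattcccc
Tbx20, chr9:24774304-24774553, minus strand: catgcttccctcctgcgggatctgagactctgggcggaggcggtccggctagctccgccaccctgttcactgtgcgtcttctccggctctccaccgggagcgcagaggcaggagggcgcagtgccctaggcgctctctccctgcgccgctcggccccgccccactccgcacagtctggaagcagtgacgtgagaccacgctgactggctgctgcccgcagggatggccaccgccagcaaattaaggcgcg
Hand2, chr8:57320733-57320982, plus strand: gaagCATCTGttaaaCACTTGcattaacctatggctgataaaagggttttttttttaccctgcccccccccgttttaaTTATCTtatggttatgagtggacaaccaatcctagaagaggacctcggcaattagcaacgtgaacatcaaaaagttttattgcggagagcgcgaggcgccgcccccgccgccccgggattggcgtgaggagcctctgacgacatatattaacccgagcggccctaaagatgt
Gata5, chr2:180334700-180334929, minus strand: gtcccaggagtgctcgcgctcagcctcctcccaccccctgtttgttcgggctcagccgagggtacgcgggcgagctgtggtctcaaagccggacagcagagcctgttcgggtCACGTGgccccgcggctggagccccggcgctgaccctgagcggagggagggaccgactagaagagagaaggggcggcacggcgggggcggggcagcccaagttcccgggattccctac
The Hand2 window held 1 GATA site, 2 E-boxes and 1 NK-2 match, which overlapped an E-box, and the Gata5 window held 1 E-box. The Tcf21 and Tbx20 windows held none of the 4. Over all 32851 promoters of the table and the 250 bases upstream, 9.99% had the GATA site, 16.3% the T-box core, 66.2% an E-box and 40.7% the NK-2 core. In windows of 230 bases, the length shown for Gata5, 63.5% had an E-box, and in windows of 219 bases, the length shown for Tcf21, the shares were 9.01%, 14.6%, 62% and 36.7%. A match is a description of the letters and not evidence of binding. Of the 10 members, 6 had an entry in this promoter table.

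The libraries held 7836 barcodes and 63585504 UMIs at P1 and 9077 barcodes and 98346195 UMIs at P7, and 18 barcodes occurred in both. After keeping barcodes with 200 to 8000 genes and at most 20% mitochondrial UMIs, 4991 P1 cells (median 10875 UMIs) and 8511 P7 cells (median 10104 UMIs) remained. Cells were assigned to classes by UMIs of lineage genes, giving 1615 and 3198 Cdh5 endothelial cells at P1 and P7, 732 and 608 Pdgfra fibroblasts, 235 and 1622 Pi16 fibroblasts, 208 and 103 valve-type cells (Fmod and Scx), 112 and 355 Myh11 smooth muscle cells, 183 and 330 Kcnj8 pericytes, 44 and 19 Upk3b epicardial cells and 91 and 18 Tnnt2-rich myocytes. Ptprc leukocytes (316 and 449 cells) served as the background class. Whether they lack each of these factors was not tested, and Gata6 was at 5.29 and 3.64 CPM there. Levels are CPM, the UMIs of a gene scaled to all UMIs of the class, with an exact 95% Poisson interval. Differences between libraries are log2 ratios of P1 over P7 with 0.5 added to each sum and an exact 95% conditional interval. All intervals and floors cover counting error only. A gene was counted as apart where its ratio reached 2-fold in either direction and its sums reached 20 UMIs. Levels are not compared between genes.

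Some class markers were found where the class names place them. Pecam1 was at 605 and 673 CPM in endothelium at P1 and P7 and Rgs5 at 3895 and 7839 CPM in pericytes. Msln was at 2221 and 1331 CPM in epicardial cells. In myocytes Tnni3 was at 7677 and 8782 CPM and Actc1 at 14479 and 14360 CPM. Myh6 (4252 and 1068 CPM) and Ttn (1788 and 251 CPM) were lower in the P7 myocytes. The median depth of myocytes was 4077 and 2358 UMIs. Not every marker looked up was highest in its own class. Dpp4 was at 6.84 and 43.7 CPM in Pi16 fibroblasts and at 126 and 245 CPM in epicardial cells. Clec3b was highest in Pi16 fibroblasts, at 407 and 1095 CPM. Hapln1, looked up for the Npr3-positive subset of the endothelium, was at 13.7 CPM there at P1 and at 61.7 CPM in valve-type cells. The pericyte class also held the fibroblast gene Dcn at 1598 and 1607 CPM. Of the 44 epicardial cells at P1, 25 (56.8%) carried a UMI of a lung-type gene (Nkx2-1, Tbx4, Foxf1, Hoxa4, Hoxa5 or Hoxb5), against 3 of 19 (15.8%) at P7. Hoxa5 was at 148 and 28.2 CPM in epicardial cells and at most at 13.9 CPM in the other classes at P1. The class is named after its Upk3b gate, and whether it held mesothelium from outside the heart was not tested. In Cdh5 endothelium those shares were 16.8% and 9.26%, in pericytes 14.2% and 7.27% and in smooth muscle cells 16.1% and 4.79%. Over all kept cells they were 10.7% and 5.02%. The class values that moved most without such cells are given both ways.

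Over all kept cells, 3 of the 10 factors were at least 2-fold higher at P1 (Gata5, Tbx5 and Nkx2-5), against a background of 8.88% of the 16552 genes measured, and 0 of 10 were 2-fold higher at P7, against 4.07%. The median log2 ratio of the members was 0.57, beside 0.00 for all genes. Nkx2-5 had 234 UMIs (3.96 CPM) at P1 and 67 (0.688 CPM) at P7, a log2 ratio of 2.52 (2.13 to 2.94). Gata5 stood at 3.22 and 0.606 CPM (log2 2.40, 1.98 to 2.86) and Tbx5 at 5.81 and 1.46 CPM (log2 1.99, 1.71 to 2.29). These were also the members with the lowest sums, at most 343 UMIs in a library. The other 7 lay between Gata6, at 141 and 84 CPM (log2 0.75), and Tcf21, which was the only member lower at P1, at 351 and 482 CPM (log2 -0.46, -0.48 to -0.43). In such a sum, fewer cells of a type and less RNA per cell cannot be told apart. When the P1 level of each class was weighted by the class mix of the P7 library, the ratio of Nkx2-5 came to 1.02, that of Gata5 to 1.96, that of Tbx5 to 1.65 and that of Tcf21 to -0.26. The Nkx2-5 ratio was thus the member ratio that moved most with the mix of classes, and 91 myocytes were kept at P1 against 18 at P7. The authors describe cardiomyocytes as underrepresented in these libraries, because few survived and their size did not suit the sorter. The myocyte numbers are thus not those of the hearts.

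**Figure D1:**
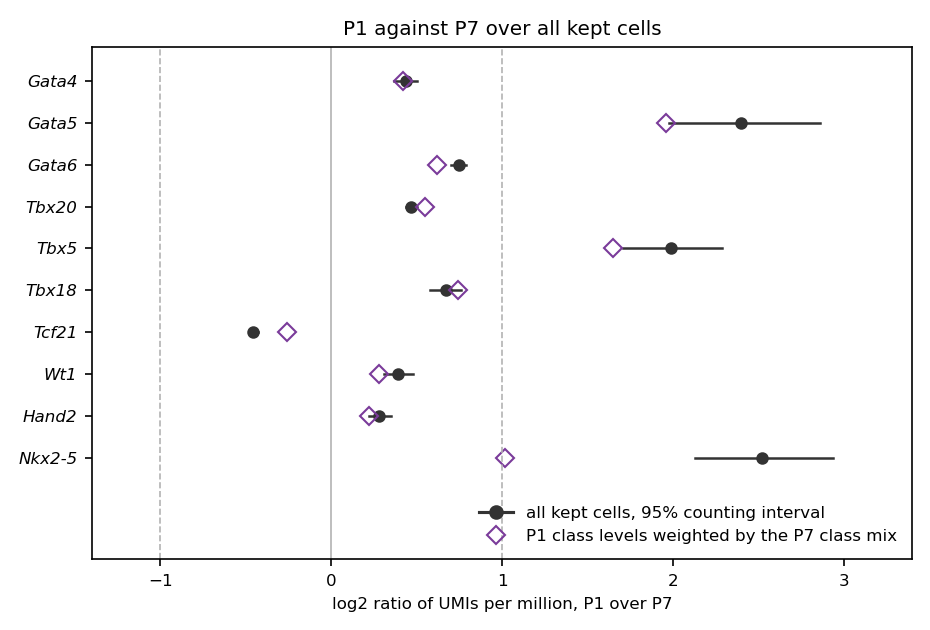
Log2 ratio of CPM, P1 over P7, for each of the 10 factors over all kept cells (circles, lines are 95% counting intervals) and with P1 class levels weighted by the P7 class mix (diamonds), with dashed lines at 2-fold. Gata5, Tbx5 and Nkx2-5 lie beyond the 2-fold line, and the diamond of Nkx2-5 sits at 1.02.

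For 8 of the 10 factors the class with the highest level was the same at both ages. The share of all genes with the same highest class was not computed, so this count is not a trait of the factors. Gata4 and Tbx20 were highest in valve-type cells, Gata6, Tbx18 and Wt1 in epicardial cells, Tcf21 in Pdgfra fibroblasts, Hand2 in Npr3-positive endothelium and Nkx2-5 in myocytes. The interval of the highest class overlapped that of the next for Gata4 at both ages, Gata6 at P1 and Hand2 at P7, so these orders are not settled. Without cells holding a lung-type UMI, Gata6 at P1 was 355 CPM in valve-type cells and 345 CPM in epicardial cells. The exceptions were Gata5, highest in epicardial cells at P1 and in Npr3-positive endothelium at P7, and Tbx5, highest in myocytes at P1 and in epicardial cells at P7. Both rested on small sums, and the highest interval again overlapped the next for Gata5 at P7 and Tbx5 at P1. The highest class stood at least 2-fold above the next for 3 of 10 members at P1 (Gata5, Wt1 and Nkx2-5), where 22.6% of all genes did so, and for 4 of 10 at P7 (Tbx5, Tbx18, Wt1 and Nkx2-5), where 24.9% did. Gata4 was spread over many classes. In the 7 classes where it was highest at P1, it ran from 105 CPM in valve-type cells to 46.1 CPM in smooth muscle cells. Neighbouring intervals of these classes overlapped except between Pi16 fibroblasts and Npr3-positive endothelium. Gata4 was lower in epicardial cells (21.2 CPM), in Npr3-negative endothelium (9.81 CPM, 1302 cells) and in leukocytes (1.32 CPM).

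**Figure D2:**
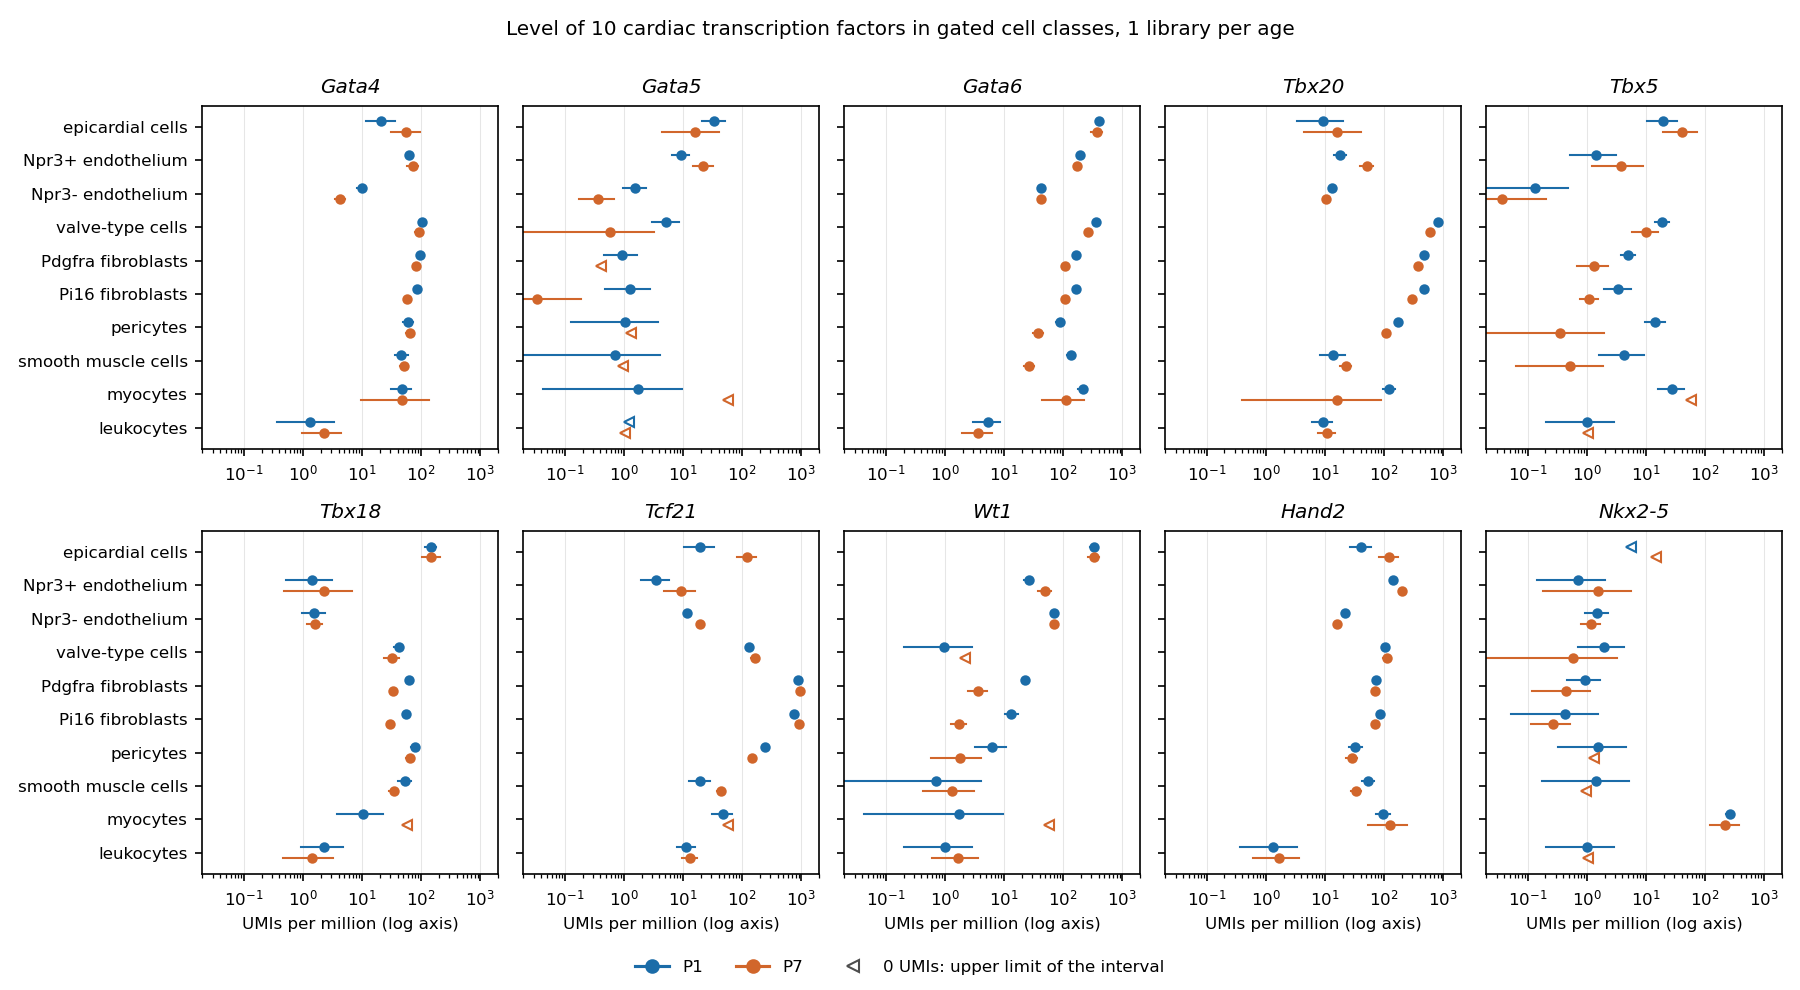
Level of each factor (CPM on a log axis) in 10 cell classes at P1 (blue) and P7 (orange). Points are sums over the cells of 1 library, lines are 95% counting intervals and open triangles mark the upper limit where a class held 0 UMIs. Nkx2-5 reaches 268 and 220 CPM in myocytes and at most 1.96 CPM in other classes with a UMI, while Gata4 and Hand2 spread over most classes.

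Nkx2-5 (chr17:26838664-26845009) encodes the homeodomain factor that marks the cardiac progenitor and the working cardiomyocyte. In myocytes it stood at 268 CPM (155 UMIs, 227 to 313) at P1 and 220 CPM (14 UMIs, 120 to 369) at P7, with a log2 ratio of 0.24 (-0.51 to 1.19). The class levels thus did not differ beyond counting error, although the library totals did. At P1, 66.2% of all Nkx2-5 UMIs lay in myocytes and 10.7% in endothelium, and at P7 those shares were 20.9% and 50.7%. Endothelial Nkx2-5 was 1.31 CPM (25 UMIs) and 1.2 CPM (34 UMIs), next to 0.992 CPM (3 UMIs) and 0 in leukocytes. The myocyte genes Actc1 and Tnni3 were also found in endothelium, at 61.3 and 33.4 CPM at P1 and 114 and 74.2 CPM at P7. What part free myocyte RNA had in the endothelial Nkx2-5 counts was not tested.

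Tbx5 (chr5:119832668-119885219), the T-box factor of the atria and the left ventricle, was scarce in every class. The P1 myocytes held 16 UMIs (27.6 CPM, 15.8 to 44.9) and the P7 myocytes 0, where 3 counts would correspond to 47.1 CPM, so no ratio is given. Valve-type cells held 58 and 17 UMIs (18.9 and 10 CPM, log2 0.89, 0.12 to 1.79). In Pdgfra fibroblasts the level was 4.97 CPM (59 UMIs) at P1 and 1.32 CPM (12 UMIs) at P7, a log2 ratio of 1.87 (1.00 to 2.94), and in Pi16 fibroblasts it was 3.42 and 1.11 CPM (log2 1.65, 0.67 to 2.53). Pericytes had 28 UMIs at P1 and 1 at P7 (log2 4.80, 2.77 to 10.72). Of those 28 UMIs, 22 lay in the 26 P1 pericytes that carried a lung-type UMI, and without such cells 6 and 1 UMIs were left. Over all kept cells without lung-type cells, Tbx5 stood at 3.9 and 1.47 CPM, with a ratio interval of 1.09 to 1.73. With gate minimums lowered by 1 UMI the Tbx5 ratio in Pdgfra fibroblasts was 0.97. The myocytes as a class had 2 of 6 measured members at least 2-fold higher at P1 (background 16.9%) and 0 at P7 (background 5.11%). Those were Tbx20, with 70 UMIs (121 CPM) at P1 and 1 UMI (15.7 CPM) at P7 (log2 2.37, 0.42 to 8.27), and Tcf21, with 27 UMIs (46.6 CPM) at P1 and 0 at P7, where the 3-count floor of 47.1 CPM allows no ratio. The Tbx20 ratio turned to -0.55 when barcodes over the mitochondrial limit were kept, so with 18 P7 myocytes its direction was not settled.

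Gata4 (chr14:63198922-63271692), Gata5 (chr2:180325133-180334699) and Gata6 (chr18:11052064-11085635) encode zinc finger factors that open the cardiac programme, and Hand2 (chr8:57320983-57324633) a basic helix-loop-helix factor needed in the endocardium. These 4 genes set the Npr3-positive apart from the Npr3-negative endothelium. The former is a subset of Cdh5 cells defined by a UMI of the natriuretic peptide clearance receptor, which is known from the endocardium. Across all classes, only Hand2 of the 4 was highest there at both ages. At P1 Gata4 was at 61.9 CPM there and 105 CPM in valve-type cells, and Gata6 at 191 and 359 CPM. Gata4, Gata5, Gata6 and Hand2 were at least 2-fold higher in Npr3-positive than in Npr3-negative endothelium at P1, 4 of 9 measured members (background 10.7%). Tcf21 and Wt1 were at least 2-fold lower, 2 of 9 (background 5.53%). At P7, 5 of 9 were higher (background 13%), namely the same 4 and Tbx20, and 1 of 9 was lower (Tcf21, background 9.51%). Hand2 stood at 144 CPM (610 UMIs) in Npr3-positive and 22 CPM (327 UMIs) in Npr3-negative cells at P1, a log2 ratio between the subsets of 2.71 (2.52 to 2.91). The P7 values were 204 and 16 CPM (log2 3.68, 3.45 to 3.90). Gata4 had subset log2 ratios of 2.66 at P1 and 4.09 at P7, Gata6 of 2.21 and 2.04, and Gata5 of 2.56 and 5.85, the last on 29 and 10 UMIs.

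Taken as a whole, the endothelium held 2 of 9 measured members at least 2-fold higher at P1 (Gata4 and Gata5, background 5.49%) and 0 at P7 (background 4.25%). Gata4 was at 21.3 CPM (408 UMIs) at P1 and 7.39 CPM (210 UMIs) at P7 (log2 1.53, 1.29 to 1.78), and Hand2 at 49 and 24.7 CPM (log2 0.99, 0.85 to 1.13). The Npr3-positive share of the endothelium was 19.4% at P1 (17.5 to 21.4) and 2.97% at P7 (2.41 to 3.62). Within the subsets the ratios differed from those of the whole class. Gata4 came to -0.22 (-0.56 to 0.13) in Npr3-positive and 1.21 (0.85 to 1.57) in Npr3-negative cells. Hand2 came to -0.50 (-0.71 to -0.29) and 0.46 (0.25 to 0.67), and Gata6, at 0.64 in the whole endothelium, to 0.16 (-0.06 to 0.38) and -0.01 (-0.16 to 0.13). For Gata6 neither subset differed between ages beyond counting error.

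In Npr3-positive endothelium 0 of 7 measured members were at least 2-fold higher at P1 (background 4.12%) and 3 of 7 were higher at P7 (background 4.36%). These were Tbx20, Gata5 and Tcf21. Tbx20 had 76 UMIs (18 CPM) at P1 and 67 UMIs (50.9 CPM) at P7 (log2 -1.50, -1.99 to -1.01), and its leukocyte background was 9.26 and 10.7 CPM. Gata5 had 9.22 CPM (39 UMIs) and 22 CPM (29 UMIs), log2 -1.26 (-1.99 to -0.51). This Gata5 ratio was -0.84 without cells holding a lung-type UMI and -0.12 without cells holding a UMI of the fibroblast genes Pdgfra or Lum, and that of Tbx20 was -0.62 with each gate minimum raised by 1 UMI. Tcf21 rested on 15 and 12 UMIs (3.54 and 9.11 CPM), under its leukocyte level of 11.2 and 12.9 CPM, and its ratio changed sign when each gate minimum was raised. Fibroblast genes differed in these Npr3-positive cells. Dcn was at 674 CPM at P1 and 1093 CPM at P7, Col3a1 at 221 and 432 CPM and Lum at 133 and 262 CPM. Col1a1, at 35 and 69.8 CPM, lay under its leukocyte level of 68.8 and 77.9 CPM. In Npr3-negative endothelium Dcn was at 130 and 227 CPM and Col1a1 at 89.5 and 127 CPM. What part fibroblast RNA had in these ratios was not tested. Without cells holding a Pdgfra or Lum UMI the Tbx20 ratio was -2.66, and Tcf21 no longer reached 20 UMIs. In Npr3-negative endothelium 2 of 9 were at least 2-fold higher at P1 (Gata4 and Gata5, background 3.88%) and 0 at P7 (background 4.69%). There Gata4 stood at 9.81 CPM (146 UMIs) and 4.24 CPM (115 UMIs), and Gata5 at 1.55 CPM (23 UMIs) and 0.369 CPM (10 UMIs), log2 2.03 (0.94 to 3.30). The Gata4 ratio was 0.54 when cells meeting gates of 2 lineages were kept. Genes that mark the Npr3-positive subset were also higher in Npr3-negative cells at P1, with Plvap at 70.6 and 17.2 CPM and Cytl1 at 17.4 and 5.61 CPM, and their part in the Gata4 and Gata5 ratios was not tested.

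**Figure D3:**
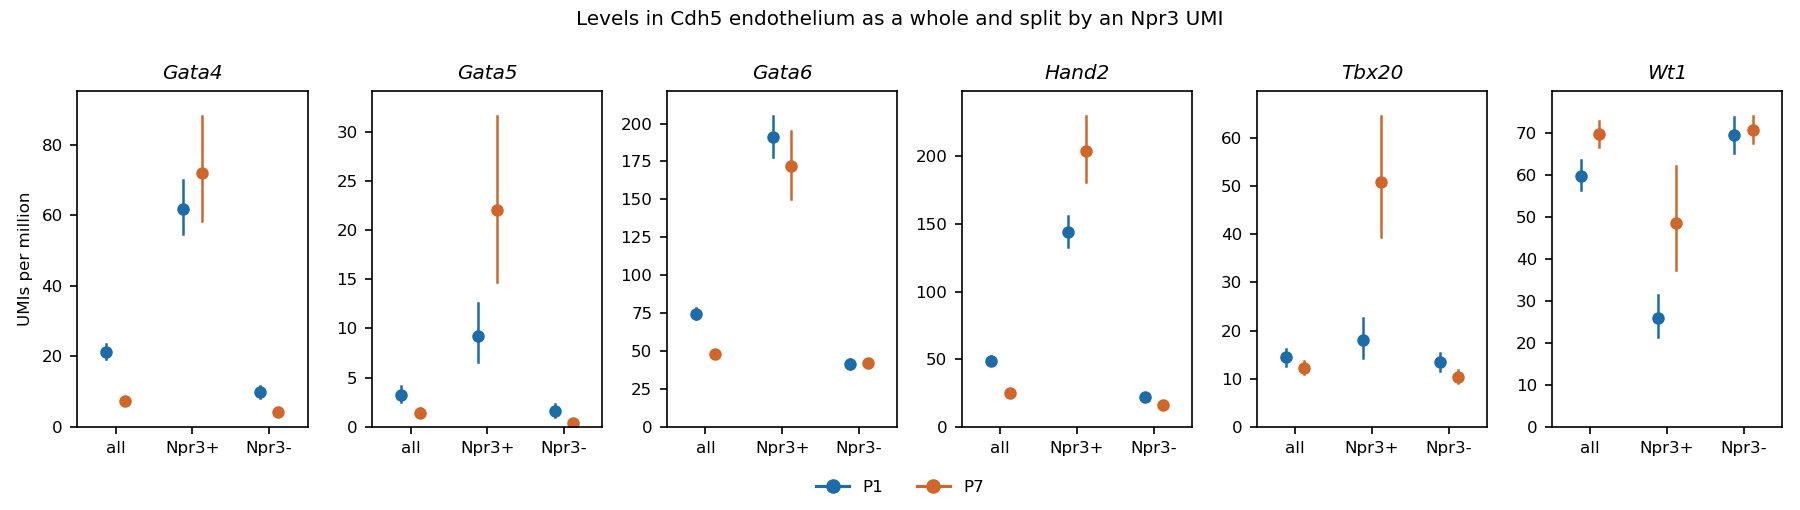
Levels of 6 factors (CPM, axes from 0 and scaled per gene) in Cdh5 endothelium as a whole and in its Npr3-positive and Npr3-negative cells, at P1 (blue) and P7 (orange), with 95% counting intervals. Gata6 is higher at P1 in the whole class but overlaps between ages in both subsets, and Wt1 is higher in Npr3-negative than in Npr3-positive cells at P1.

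Wt1 (chr2:105126529-105173616), the zinc finger factor that maintains the epicardium and its mesenchymal transition, did not differ between ages beyond counting error in epicardial cells. There it stood at 330 CPM at P1 (218 UMIs, 288 to 377) and 330 CPM at P7 (82 UMIs, 262 to 409), a log2 ratio of 0.00 (-0.37 to 0.39), and 97.7% and 94.7% of the cells held a Wt1 UMI before thinning. Without cells holding a lung-type UMI it was 277 and 319 CPM, on 73 and 68 UMIs (log2 -0.21, -0.70 to 0.29). The second highest class was Npr3-negative endothelium, at 69.4 CPM (1033 UMIs) and 70.7 CPM (1917 UMIs), log2 -0.03 (-0.14 to 0.08). Because that class was large, it held 52.7% of all Wt1 UMIs at P1 and 77.7% at P7, while epicardial cells held 11.1% and 3.33%. Leukocytes had 0.992 and 1.68 CPM.

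Wt1 was higher at P1 in the fibroblasts. In Pdgfra fibroblasts it stood at 22.5 CPM (267 UMIs) at P1 and 3.63 CPM (33 UMIs) at P7, a log2 ratio of 2.61 (2.11 to 3.20). In Pi16 fibroblasts it was 13.3 CPM (62 UMIs) and 1.71 CPM (51 UMIs), log2 2.95 (2.40 to 3.52). The P7 value of Pi16 fibroblasts was at the leukocyte level, and valve-type cells had 3 and 0 UMIs. Under the alternatives computed for it, the Wt1 ratio in Pdgfra fibroblasts ran from 1.78, with cells meeting gates of 2 lineages kept, to 3.19, and without lung-type cells it was 3.07. The P1 fibroblasts of either kind with a Wt1 UMI (202 cells) had Msln at 1.13 CPM, Upk1b at 0, Krt19 at 1.41 and Pecam1 at 3.38 CPM, and those without (765 cells) had 1.16, 0.077, 1.31 and 8.7 CPM. Tcf21 was 882 and 823 CPM in these cells. Epicardial and endothelial markers were low in fibroblasts with and without a Wt1 UMI. Cells that also met the Upk3b or Cdh5 gate had been left out, so these low values follow in part from the gates. Where the Wt1 UMIs of the fibroblasts came from was not tested. After every cell was thinned to 2000 UMIs, 30 of 718 Pdgfra fibroblasts (4.18%, 2.84 to 5.91) had a Wt1 UMI at P1 and 4 of 603 (0.663%, 0.181 to 1.69) at P7, beside 0 of 301 leukocytes, which by the floor of 3 counts allows a share of up to 0.997%, and 1 of 413. Unthinned, the shares were 22.3% and 3.12%.

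Wt1os, a noncoding gene on the opposite strand whose annotated 5′ end lies 18 bases from that of Wt1, was counted under its own identifier. It had 26 UMIs (2.19 CPM) in Pdgfra fibroblasts at P1 and 0 at P7, where 3 counts would correspond to 0.33 CPM. In epicardial cells it was at 34.8 and 36.2 CPM and in Npr3-negative endothelium at 4.3 and 4.47 CPM. Across the class levels of both libraries Wt1os was among the 3 genes whose pattern was most like that of Wt1 (Pearson r 0.913 over 20 class and library points, which share depth and cell mix), with Galnt15 (0.934) and Plscr2 (0.906).

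Tbx18 (chr9:87702800-87731260), the T-box factor of the epicardium, the sinus node and mural cells, was highest in epicardial cells, at 144 CPM (95 UMIs) at P1 and 149 CPM (37 UMIs) at P7 (log2 -0.06, -0.61 to 0.54). Pericytes followed at 78.4 and 64.7 CPM (log2 0.28, -0.04 to 0.60). With all cells of these classes the ages did not differ beyond counting error, but the values moved without cells holding a lung-type UMI. Epicardial Tbx18 was then 315 CPM (83 UMIs) at P1 and 174 CPM (37 UMIs) at P7, a log2 ratio of 0.85 (0.28 to 1.46), and pericytes had 82.3 and 63.4 CPM (log2 0.38, 0.04 to 0.71). In Pdgfra fibroblasts the level was 62.7 CPM (744 UMIs) and 33.8 CPM (307 UMIs), log2 0.89 (0.70 to 1.09), and in Pi16 fibroblasts 55 and 29.2 CPM (log2 0.92, 0.71 to 1.12). Endothelium (1.52 and 1.62 CPM) was at the level of leukocytes (2.31 and 1.4 CPM).

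The epicardial cells as a class had 0 of 8 measured members at least 2-fold higher at P1 (background 6.77%) and 4 of 8 higher at P7 (background 5.37%), namely Gata4, Tbx5, Tcf21 and Hand2. Tcf21 had 13 UMIs (19.7 CPM) at P1 and 30 UMIs (121 CPM) at P7, a log2 ratio of -2.58 (-3.68 to -1.63), while Dcn was at 5957 and 4461 CPM in the class. Hand2 had 40.9 CPM (27 UMIs) and 121 CPM (30 UMIs), log2 -1.56 (-2.37 to -0.76). Gata4 had 14 UMIs in each library (21.2 and 56.3 CPM, log2 -1.41, -2.59 to -0.23), and the interval of the Tbx5 ratio of -1.05 spanned 0. The cells with a lung-type UMI weighed on these values. Without them, 19 and 16 cells were left, and the ratios were -1.44 for Tcf21 (13 and 29 UMIs), -0.53 for Hand2, -0.43 for Gata4 and -0.49 for Tbx5, of which the last 3 had intervals spanning 0. All 13 of the P1 Tcf21 UMIs lay in the 19 cells without a lung-type UMI. Gata6 moved little, at 405 and 370 CPM with all cells (log2 0.12, -0.22 to 0.49) and 345 and 352 CPM without. Gata5 was highest here at P1, at 33.3 CPM (22 UMIs, 20.9 to 50.5), with 16.1 CPM (4 UMIs, 4.38 to 41.2) at P7.

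Tcf21 (chr10:22817281-22820174), the basic helix-loop-helix factor required to form cardiac fibroblasts from the epicardium, marked both fibroblast classes. Pdgfra fibroblasts had 871 CPM (10335 UMIs) at P1 and 957 CPM (8693 UMIs) at P7, log2 -0.14 (-0.18 to -0.09), and Pi16 fibroblasts 745 and 919 CPM, log2 -0.30 (-0.35 to -0.25). Both ratios were off 0 by more than counting error but far under 2-fold. The share of all Tcf21 UMIs held by the 2 fibroblast classes was 66.6% at P1 and 76.8% at P7. Valve-type cells had less, 133 and 162 CPM. After thinning, 73.7% and 77.1% of Pdgfra fibroblasts held a Tcf21 UMI, against 2.33% and 2.66% of leukocytes (median depths of 15111.5 and 14826.5 UMIs and of 7664 and 6267 before thinning).

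Tbx20 (chr9:24718138-24774303), the T-box factor that acts in the myocardium and the endocardial cushions, was highest in valve-type cells, at 823 CPM (2521 UMIs) at P1 and 600 CPM (1016 UMIs) at P7 (log2 0.46, 0.35 to 0.56). Pdgfra fibroblasts stood at 467 and 378 CPM and Pi16 fibroblasts at 464 and 292 CPM. The intervals of the fibroblast classes overlapped at P1 and were apart at P7. After thinning, both Tcf21 and Tbx20 were found in 41.1% of Pdgfra fibroblasts at P1 and 40.6% at P7, and in 12.2% and 8.82% of valve-type cells. The joint share that the level of each gene alone would give was not computed. Endothelial Tbx20 (14.4 and 12.2 CPM) was close to the leukocyte level (9.26 and 10.7 CPM).

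Pdgfra fibroblasts had 2 of 8 measured members at least 2-fold higher at P1 (Tbx5 and Wt1, background 4.34%) and 0 at P7 (background 2.66%). The same 2 of 8 were higher at P1 in Pi16 fibroblasts (background 6.01%), again with 0 at P7 (background 4.97%). Gata6 was 166 and 109 CPM in Pdgfra fibroblasts (log2 0.61, 0.50 to 0.72) and 167 and 108 CPM in Pi16 fibroblasts (log2 0.63, 0.52 to 0.75). Gata4 was 96.8 and 83.2 CPM in the former (log2 0.22) and 83.4 and 57 CPM in the latter (log2 0.55), and Hand2 stayed within counting error in Pdgfra fibroblasts, at 74.1 and 70.7 CPM (log2 0.07, -0.08 to 0.22). In valve-type cells 0 of 7 members were at least 2-fold apart in either direction, where 4.09% of genes were higher at P1 and 2.91% at P7. Gata6 was 359 and 263 CPM there (log2 0.45, 0.29 to 0.61), and Gata4 (105 and 91.5 CPM) and Hand2 (104 and 112 CPM) did not differ beyond counting error. The median member ratio was 0.46 in Pdgfra fibroblasts, 0.65 in Pi16 fibroblasts and 0.37 in valve-type cells, beside 0.01, 0.00 and 0.04 for all genes of these classes.

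In mural cells Gata6, which is known for keeping vascular smooth muscle in its contractile state, was higher at P1 with and without lung-type cells. Smooth muscle cells had 137 CPM (190 UMIs, 118 to 158) at P1 and 26.4 CPM (100 UMIs, 21.5 to 32.1) at P7, a log2 ratio of 2.37 (2.02 to 2.74). Of the 190 P1 UMIs, 56 lay in the 18 cells with a lung-type UMI, and without those cells the levels were 116 and 25.4 CPM (log2 2.18). Pericytes had 88.8 CPM (171 UMIs) and 37.1 CPM (105 UMIs), log2 1.26 (0.90 to 1.62), or 0.79 with gate minimums lowered by 1 UMI. After thinning, 23.4% of smooth muscle cells (25 of 107, 15.7 to 32.5) held a Gata6 UMI at P1 and 5.48% (19 of 347, 3.33 to 8.42) at P7, against 0.332% and 0.484% of leukocytes. Unthinned, the shares were 57.1% and 20.3%. Smooth muscle cells had 1 of 6 measured members at least 2-fold higher at P1 (Gata6, background 4.88%) and 1 of 6 higher at P7 (Tcf21, background 3.28%), the latter at 19.4 and 43.3 CPM (log2 -1.13, -1.80 to -0.56). Dcn stood at 151 and 294 CPM in these smooth muscle cells. The fibroblast genes Col1a1 (839 and 234 CPM), Col3a1 (585 and 435 CPM) and Lum (66.2 and 58.3 CPM) were lower at P7. What part fibroblast RNA had in the Tcf21 ratio was not tested. With cells of 2 lineages kept, that ratio was -0.56. Pericytes had 2 of 7 higher at P1 (Gata6 and Tbx5, background 3.42%) and 0 at P7 (background 2.82%). Gata4 did not differ beyond counting error in either class, at 46.1 and 50.7 CPM in smooth muscle cells and 60.2 and 64 CPM in pericytes. Tcf21 (240 and 149 CPM) and Tbx20 (170 and 107 CPM) were well above leukocytes in pericytes, a class in which Dcn was also present. In pericytes with an Abcc9 UMI and no Pdgfra UMI the Tcf21 ratio was 0.59, against 0.69 for the whole class, and that of Gata6 was 1.66.

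**Figure D4:**
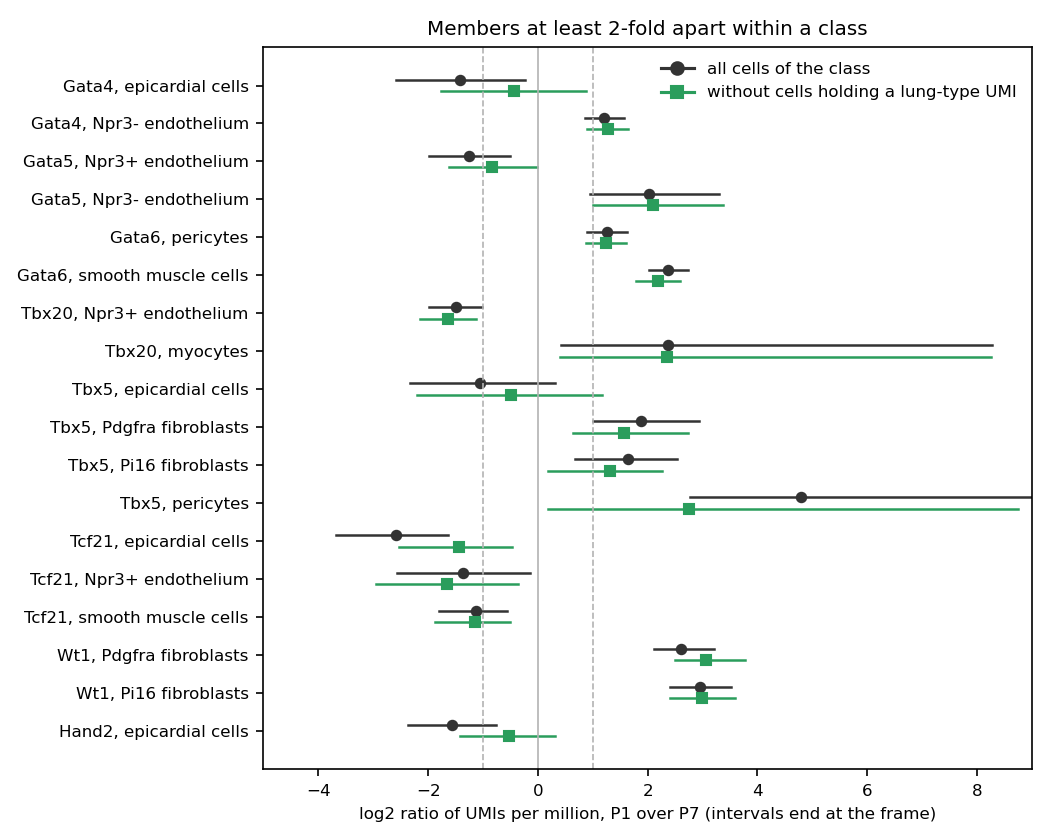
Log2 ratio of P1 over P7 for the 18 pairs of factor and class that were at least 2-fold apart with UMIs in both libraries (circles: all cells of the class, squares: without cells holding a lung-type UMI, lines: 95% counting intervals, dashed lines: 2-fold). The squares of Gata4 and Hand2 in epicardial cells lie at -0.43 and -0.53, while those of Wt1 in fibroblasts and Gata6 in smooth muscle cells stay beyond 2-fold.

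Several factors were found in the same cells. The shares that the level of each factor alone would give, or those of other genes, were not computed. The joint shares are thus not a trait of the factors. After thinning to 2000 UMIs, Pdgfra fibroblasts held a mean of 2.01 of the 10 factors per cell at P1 and 1.85 at P7, Npr3-positive endothelium 0.687 and 0.895, Npr3-negative endothelium 0.297 and 0.28, and leukocytes 0.0598 and 0.0775. At least 3 factors were found in 31.6% and 22.2% of Pdgfra fibroblasts and in 28.3% and 16.7% of valve-type cells. Unthinned, Gata6 and Hand2 were found together in 48.2% of Npr3-positive endothelial cells at P1 and 53.7% at P7, against 6.53% and 3.38% of Npr3-negative cells, whose median depths were lower (10369 and 7756 UMIs, against 13195 and 12113). Thinned, those shares were 7.42%, 7.37%, 0.48% and 0.235%. Wt1 and Tbx18 were found together in 21 of 44 epicardial cells at P1 and 11 of 19 at P7 unthinned, and in 5 of 44 and 1 of 19 thinned. Over the 20 class and library points, the closest members were Gata6 and Hand2 (r 0.89), Gata4 and Hand2 (0.88), and Tbx20 and Tcf21 (0.79), and the farthest were Tbx18 and Nkx2-5 (-0.40).

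Among genes that were no members, the patterns most like those of Tcf21 over the same 20 points were Lama2 (r 0.975), Matn2 (0.971) and Abca8a (0.947), and those most like Nkx2-5 were Lrrc10 (0.976), Doc2g (0.967) and Smpx (0.966). Tbx20 was closest to Gng8 (0.928), Nkd2 (0.926) and Sox9 (0.926), and Tbx18 to Rarres2 (0.95), Tulp1 (0.949) and Efna2 (0.948). Meis2, a homeobox gene, was the closest to Hand2 (0.919), before Gm34030 (0.909) and Tceal8 (0.896), and for Gata6 it stood (0.902) between Cdk16 (0.903) and Bag3 (0.893). Gata4 was closest to Podxl2 (0.928), Ptov1 (0.918) and Rbms3 (0.910), and Gata5 to Wnt2 (0.914), Mpzl2 (0.908) and Sema3a (0.892). Tbx5 had the lowest values, with 1010001N08Rik (0.866), which overlaps Gata6 on the opposite strand, Epb41l3 (0.823) and Gm47101 (0.796).

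Of 36 other cardiac transcription factors, all measured, 8 were at least 2-fold higher at P1 over all kept cells and 0 at P7, with a median log2 ratio of 0.12. Of 14 target and partner genes, 4 were higher at P1 and 1 at P7, with a median of 0.14. Over all genes 8.88% were higher at P1 and 4.07% at P7, with a median of 0.00. Hand1 had 24 UMIs at P1 and 0 at P7, and where 1 library reached 50 UMIs, the P1 end held Isl1, a LIM homeobox factor of the second heart field (123 and 13 UMIs, log2 3.92, 3.14 to 4.91), Nppa, the atrial natriuretic peptide gene (13 and 1.07 CPM, log2 3.60, 3.30 to 3.91), and Irx5 (5.68 and 0.965 CPM, log2 2.55, 2.22 to 2.90). Of the Isl1 UMIs at P1, 61 lay in the 44 epicardial cells, and 52 of these in cells with a lung-type UMI. At the P7 end were Gja5, a connexin of arteries and the conduction system (3.93 and 9.19 CPM, log2 -1.22, -1.44 to -1.01), Pdpn (log2 -0.94) and Sema3d (log2 -0.90). Nppa was highest in myocytes at both ages, at 1050 and 78.6 CPM. Irx5 was highest in Npr3-positive endothelium at P1 (43.7 CPM, beside 41.5 CPM in myocytes). At P7 it was highest in myocytes (31.4 CPM, beside 19.7 CPM in Npr3-positive endothelium). That P7 myocyte value lies under the 47.1 CPM of 3 counts, so the order of these classes is not settled.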

How the data were processed

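The authors deposited raw UMI counts per gene and barcode for 2 single-cell libraries, made per the labels with Cell Ranger 3.1.0 on mm10 (GRCm38), the build of the GENCODE M21 positions used here. Gata5, Gata6 and Tcf21 overlap opposite-strand genes that the files also count, and whether counting used strand is not given in the sources used here. The filter of 200 to 8000 genes and at most 20% mitochondrial UMIs, and the class gates, were computed from the deposited counts with python 3.11.15, numpy 2.4.6, scipy 1.17.1 and pandas 2.3.3. Gates were at least 2 UMIs of Cdh5 (Npr3-positive: also 1 of Npr3), 1 of Fmod and of Scx, 1 of Pi16 and of Pdgfra, 2 of Pdgfra without Pi16, 3 of Myh11, 2 of Kcnj8, 2 of Upk3b, 2 of Ptprc, or 5 of Tnnt2 at 2000 CPM. Cells meeting gates of 2 of the 6 lineages (4.45% at P1 and 4.42% at P7) were left out of the classes, which also removed some doublets of unlike cells. Leukocytes were not among the 6 lineages, so doublets of a leukocyte and a gated cell were not removed this way. No doublet caller was run. Ungated cells were 24.7% and 16.8%. With 1 library per age no test was possible, and values are summed counts with exact intervals. The ratio and thinning code was checked on simulated counts. Named genes were all 10 members, the 3 genes most like each member by Pearson r of log2(CPM + 1), and the 3 other factors or targets with the largest ratio in each direction, given 50 UMIs or more in 1 library. Hand1 falls outside this rule and was named after its values were seen. The members, gates and lists were chosen with earlier results of these data known.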

Additional observations from a re-analysis of the deposited data

Results flagged for a closer look

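Barcodes over the mitochondrial limit of 20% entered the values above only under the alternative with no such limit. In these 592 P1 and 405 P7 barcodes, 7 member levels (CPM of UMIs that are not mitochondrial) lay above those of the kept cells with intervals apart. All 10 members were looked up in both libraries. The share of all genes with intervals apart was not computed, so the count is not a trait of the members. Tcf21 was lower in these barcodes, at 192 CPM at P1 and 154 at P7, against 364 and 498 in kept cells. Tbx20 stood at 500 CPM at P1 and 388 at P7, against 265 and 190 in kept cells. Gata6 stood at 230 and 124 CPM, against 146 and 86.8. Tbx18 was at 51.4 CPM at P7 (kept 22.9), Wt1 at 54.8 CPM at P1 (kept 34.4) and Nkx2-5 at 31.6 CPM at P1 (kept 4.11, on 26 and 234 UMIs).

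For 3 factors the P1 over P7 ratio pointed in opposite directions in 2 classes, both at least 2-fold and with counting intervals off 0. The share of all genes that did so was not computed, so this count is not a trait of the factors. Gata4 was 1.21 in Npr3-negative endothelium and -1.41 in epicardial cells, or 1.27 and -0.43 without cells holding a lung-type UMI. Gata5 was 2.03 in Npr3-negative endothelium, on 23 and 10 UMIs, and -1.26 in Npr3-positive endothelium. Without cells holding a lung-type UMI these ratios were 2.09 and -0.84. The Npr3-positive ratio of Gata5 was smaller still without cells holding a Pdgfra or Lum UMI, as given above. Tbx20 was 2.37 in myocytes, on 70 and 1 UMIs and with a direction that was not settled, and -1.50 in Npr3-positive endothelium. Tbx5 and Tcf21 also had ratios past 2-fold in both directions, but the interval of Tbx5 in epicardial cells (-1.05) spanned 0, and Tcf21 in myocytes had 0 UMIs at P7. With 1 library per age the difference between classes was not tested.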

How the results depend on the processing

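The values rest on 1 library per age, on gates of few UMIs and on sums that are small for Gata5, Tbx5 and Nkx2-5. No paired analysis was possible because each age has 1 library. Results were recomputed under 24 alternative settings, 19 planned and 5 chosen after seeing the data. Not every setting applied to every result, and some applied only to certain classes or only to the counts below. For the 85 ratios this gave 1346 values. Of these, 1234 moved by less than their counting interval, 110 moved by more and 2 reversed. Those were Tbx20 in myocytes, at -0.55 with no mitochondrial limit, and Tcf21 in Npr3-positive endothelium, at 1.31 with each gate minimum raised by 1 UMI. A reversal was counted only where the main ratio was at least 2-fold, so sign changes of smaller ratios lie among the other values. Epicardial Tbx18, for example, was at -0.06 with all cells and 0.85 without cells holding a lung-type UMI. The 10 ratios over all kept cells kept their sign in every setting computed for them. Of 66 measured pairs of factor and class, 19 were at least 2-fold apart. That count includes Tcf21 in myocytes, with 0 UMIs at P7, and was 8 with cells thinned to 2000 UMIs, 37 with no minimum of summed UMIs and 11 with at least 50 UMIs, where the number of pairs measured differs by construction. The share over all pairs of gene and class was not computed, so these counts cannot be read alone. The shares of all genes are given above for each class. Of 180 combinations of factor, class and library, 91 had a share of cells above that of leukocytes after thinning, against 111 unthinned. The same share over all genes was not computed, so these counts are not a trait of the factors either.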

Other observations

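Cells that met gates of 2 lineages held 44 of the 190 Gata5 UMIs at P1 (23.2%) and 6 of 59 at P7 (10.2%). Their Gata5 level was 10.2 CPM at P1 and 0.818 CPM at P7, beside 3.22 and 0.606 CPM over all kept cells. Ungated cells held 20.7% and 13.5% of the Tcf21 UMIs, at 511 and 599 CPM, beside 351 and 482 CPM over all kept cells. They held 5.98% and 4.48% of the Nkx2-5 UMIs, at 1.67 and 0.284 CPM, beside 3.96 and 0.688 CPM over all kept cells.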
